A study of Mus musculus with 3 samples.

Results

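Growth hormone acts on the liver through a short relay, and 9 of its genes were followed here over 3 mouse liver arrays. The members were Ghr, Jak2, Stat5a, Stat5b, Socs2, Cish, Igf1, Igfals and Bcl6, chosen by their symbols, with each symbol read by its main probe set of highest mean level. All 9 were on the array, out of 30921 genes in all, and each had a single probe set whose probes the files mark as matching no other transcript. The group was proposed with earlier results of these arrays in view, so the values below describe the members and are not independent support for any pattern.

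Growth hormone from the pituitary binds the receptor GHR on hepatocytes, and the kinase JAK2 bound to that receptor phosphorylates the transcription factors STAT5A and STAT5B. Activated STAT5 raises transcription of Igf1 and Igfals, whose products circulate together as the main carrier complex of insulin-like growth factor, and of Socs2 and Cish, whose products dampen the receptor. In rodents the hormone is released in pulses in males and almost continuously in females, which gives many liver genes a sex bias, and BCL6 is a zinc finger repressor that is male-biased in mouse liver and binds many of the sites that STAT5 binds.

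The livers came from ICR mice, an outbred stock, aged 8 weeks when the study began and 10 weeks when sampled, with 1 MoGene-2_0-st array for each of 3 groups. Mice of the EEC+TMA group received Ecklonia cava, a brown alga, as an ethanol extract (EEC) by mouth over 2 weeks, and trimethylamine (TMA), a volatile amine, for 24 hours. The TMA group was given distilled water for 2 weeks and TMA, and the no treatment group was left untreated, so that TMA against no treatment holds the water as well. Sex, doses, the route of TMA, any pooling of RNA and any genotype beyond the stock were not given in the sources used here. With 1 array a group there was no replicate and no test, each difference compares arrays rather than conditions, and the small number of arrays sets the precision. The 3 pairs of arrays share arrays and are not independent of each other. In bulk liver, fewer cells of a type and less RNA per cell cannot be told apart.

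Values are log2 intensities as deposited. A gene was taken as measured on an array where it reached the background level, which was 3.16 for EEC+TMA, 3.26 for TMA and 3.15 for no treatment. That level is the 95th percentile of 1528 probe sets for odour, taste and pheromone receptor genes. All 9 hepatocyte markers were measured on all 3 arrays, albumin (Alb) at 13.33, 13.29 and 13.29 on the EEC+TMA, TMA and no treatment arrays. The TMA array stood apart in its controls. The 39 poly-A control probe sets, whose target RNA is added ahead of labelling, differed by a median of -0.99 (log2) for EEC+TMA minus TMA and 0.99 for TMA minus no treatment. The 1352 exon normalization probe sets had medians of 6.49, 6.07 and 6.43 on the EEC+TMA, TMA and no treatment arrays, so that they differed by a median of 0.39 for EEC+TMA minus TMA, -0.37 for TMA minus no treatment and 0.02 for EEC+TMA minus no treatment. The part of these controls in the results below was not tested.

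STAT factors bind DNA at inverted repeats of the form TTCNNNGAA, which reads the same on both strands and overlaps the letters that BCL6 and other STAT factors recognise. RefSeq promoter windows of 300 bases (GRCm38.p6, reaching 250 bases before and 50 after a transcript start) were found for 8 of the 9 members, and Socs2 had none in the table used. Of the 14 windows of the members 5 held the motif, or 35.7%, against 8.30% of 32851 windows of all genes. These 5 windows belong to 3 of the 8 genes, or 37.5%, against 9.55% of all genes with a window. The windows of Bcl6 are shown because Bcl6 differed most between the arrays, that of Cish as the feedback gene of the relay with matches beside its start, and that of Igfals as a target gene whose value was identical on all 3 arrays. Capitals mark each match.
Bcl6 window 1, chr16:23988803-23989102, minus strand: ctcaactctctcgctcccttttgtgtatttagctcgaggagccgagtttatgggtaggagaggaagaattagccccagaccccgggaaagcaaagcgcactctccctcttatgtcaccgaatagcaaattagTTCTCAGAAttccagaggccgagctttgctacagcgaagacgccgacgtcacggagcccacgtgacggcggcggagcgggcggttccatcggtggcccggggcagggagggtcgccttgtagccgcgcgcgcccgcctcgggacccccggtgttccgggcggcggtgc
Bcl6 window 2, chr16:23981234-23981533, minus strand: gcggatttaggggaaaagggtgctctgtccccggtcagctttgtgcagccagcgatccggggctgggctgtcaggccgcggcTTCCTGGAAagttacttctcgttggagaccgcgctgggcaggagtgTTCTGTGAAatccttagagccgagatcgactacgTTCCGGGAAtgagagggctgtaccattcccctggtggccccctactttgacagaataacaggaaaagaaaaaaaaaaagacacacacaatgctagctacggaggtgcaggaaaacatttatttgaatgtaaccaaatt
Cish, chr9:107296409-107296708, plus strand: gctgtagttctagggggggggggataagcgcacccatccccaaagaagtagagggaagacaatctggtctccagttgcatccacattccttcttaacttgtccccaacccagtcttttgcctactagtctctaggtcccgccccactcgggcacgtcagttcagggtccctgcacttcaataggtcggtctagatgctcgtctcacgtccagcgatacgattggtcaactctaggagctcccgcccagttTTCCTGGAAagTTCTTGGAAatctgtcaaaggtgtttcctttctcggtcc
Igfals window 2, chr17:24877981-24878280, plus strand: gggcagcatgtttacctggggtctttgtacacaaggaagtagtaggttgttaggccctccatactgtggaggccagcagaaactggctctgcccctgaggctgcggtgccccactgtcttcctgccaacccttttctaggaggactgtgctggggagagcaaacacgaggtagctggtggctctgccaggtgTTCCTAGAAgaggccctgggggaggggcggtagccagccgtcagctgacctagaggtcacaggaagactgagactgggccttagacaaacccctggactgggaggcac

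Window 2 of Bcl6 held 3 matches, which began 168, 122 and 88 bases before the transcript start, and window 1 held 1, which began 118 bases before it. At least 2 matches stood in 0.457% of all windows. The Cish matches began at the transcript start and 11 bases after it. Igfals had 1 match in each of 2 of its 3 windows, beginning 236 bases before the start in window 1 and 58 bases before it in window 2. No match lay in the windows of Ghr, Jak2, Stat5a, Stat5b or Igf1. A match describes the letters of the window and says nothing of binding in these livers, and sites farther from the start were not searched.

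**Figure D1:**
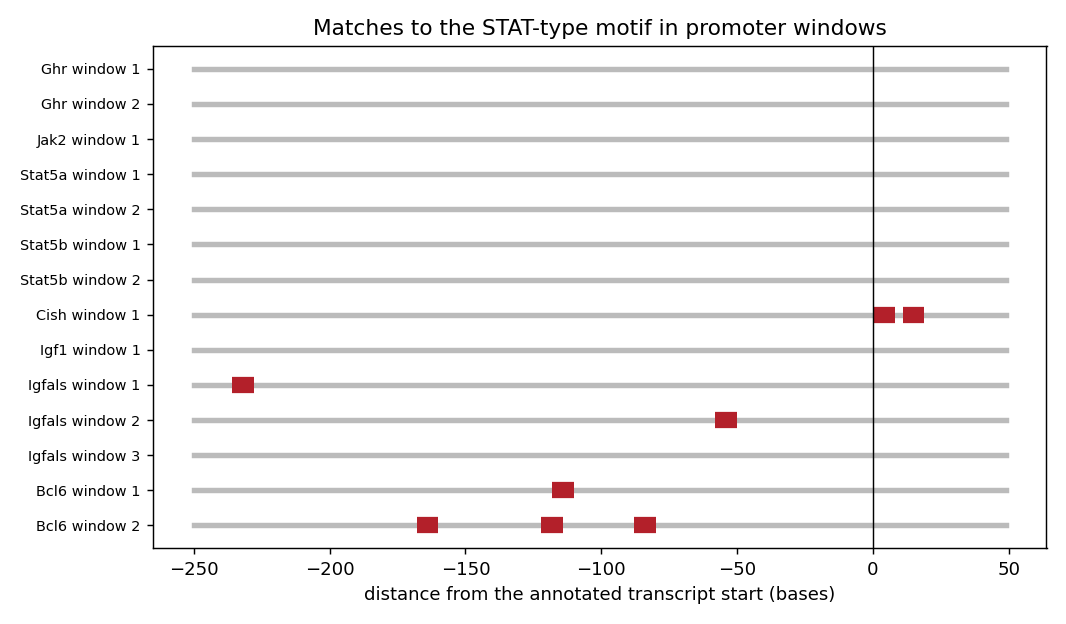
Matches to TTCNNNGAA (red blocks) in the 300-base promoter windows of 8 members (grey bars), by distance in bases from the annotated transcript start, which is the vertical line at 0. Window 2 of Bcl6 holds 3 blocks, Cish 2, and Igfals windows 1 and 2 and Bcl6 window 1 hold 1 each.

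Bcl6, the repressor at the end of the relay (chromosome 16, 23965052 to 23988852, minus strand in the files' coordinates, their build not given in the sources used here), differed most. Its level was 6.66 on the EEC+TMA array, 5.20 on TMA and 5.53 on no treatment. The EEC+TMA array was thus high, and the TMA array lay a little below the no treatment array. Bcl6 was 2.75-fold higher on the EEC+TMA array than on the TMA array (log2 difference 1.46) and 2.19-fold higher than on the no treatment array (1.13), while TMA minus no treatment gave -0.33. A more positive difference was held by 15 of the 15359 genes measured on both arrays in the comparison with TMA, and by 14 of 16121 in that with no treatment. The authors' deposited table for EEC+TMA over TMA, which holds 68 probe sets at or above 2.5-fold, lists Bcl6 at 2.75, and no other member is in that table or in the authors' deposited table for TMA over no treatment, which holds 198.

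Lymphocytes and other blood cells also express Bcl6, and markers of several such cells were read beside it. Of 8 B and plasma cell markers 2, Cd79a and Ighm, were measured on all 3 arrays and 6 on none, the median of the whole list being 2.90 on each array. Cd79a, close to background, read 3.55, 3.55 and 3.26 on the EEC+TMA, TMA and no treatment arrays. Both measured markers were higher on EEC+TMA than on no treatment, by a median of 0.19. Ms4a1 and Pax5, which define B cells, were below background on every array. Ighm, the heavy chain of immunoglobulin M, by a probe set whose probes match more than its own transcript, read 7.17, 7.35 and 7.08 on the EEC+TMA, TMA and no treatment arrays, with a log2 difference of -0.18 for EEC+TMA minus TMA. Of 9 T and natural killer cell markers 3 were measured on all 3 arrays. Of these Cd4 read 4.79, 4.41 and 4.41 on the EEC+TMA, TMA and no treatment arrays, Cd3e 4.13 on each and Cxcr5 3.53 on each, while the median over all 9, most of them below background, was 3.09, 3.09 and 3.05. Of 8 neutrophil markers 1 was, Csf3r at 3.98, 4.13 and 3.98, with the list's median at 2.10 on each array. Macrophage markers were all measured, with medians of 5.69, 5.67 and 5.47, and 9 of 12 were higher on EEC+TMA than on TMA, none by as much as 1.5-fold. Against no treatment all 12 were higher on EEC+TMA, by a median of 0.26, beside 25.4% of all measured genes higher. In that pair 2 of the 12, Cd5l and C1qb, were at least 1.5-fold higher, beside 0.893% of genes. What part these markers had in the Bcl6 differences was not tested.

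Igf1, the growth factor that liver secretes under growth hormone (chromosome 10, 87858265 to 87937047, plus strand), was the other member at least 2-fold apart. Its level was 8.10 on the EEC+TMA array, 8.38 on TMA and 9.11 on no treatment. Both treated arrays thus lay below the no treatment array, and EEC+TMA lay lowest. Igf1 on EEC+TMA was 2.02-fold lower than on no treatment (log2 difference -1.01) and 1.66-fold lower on the TMA array than on the no treatment array (-0.73), with -0.28 for EEC+TMA minus TMA. In that comparison of EEC+TMA with no treatment, 161 of the 16121 genes lay lower than Igf1. In the other pairs it lay within the central 95% of measured genes, which for EEC+TMA minus TMA spanned -0.55 to 0.72 and for TMA minus no treatment spanned -0.82 to 0.55. Igfals encodes the acid-labile subunit that holds insulin-like growth factor in the circulation (chromosome 17, 24877655 to 24882010, plus strand). It read 6.69 on the EEC+TMA, TMA and no treatment arrays alike, identical to the last deposited digit, and its difference for TMA minus no treatment was 0.23 under quantile normalization. The difference between Igf1 and Igfals was not tested.

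**Figure D2:**
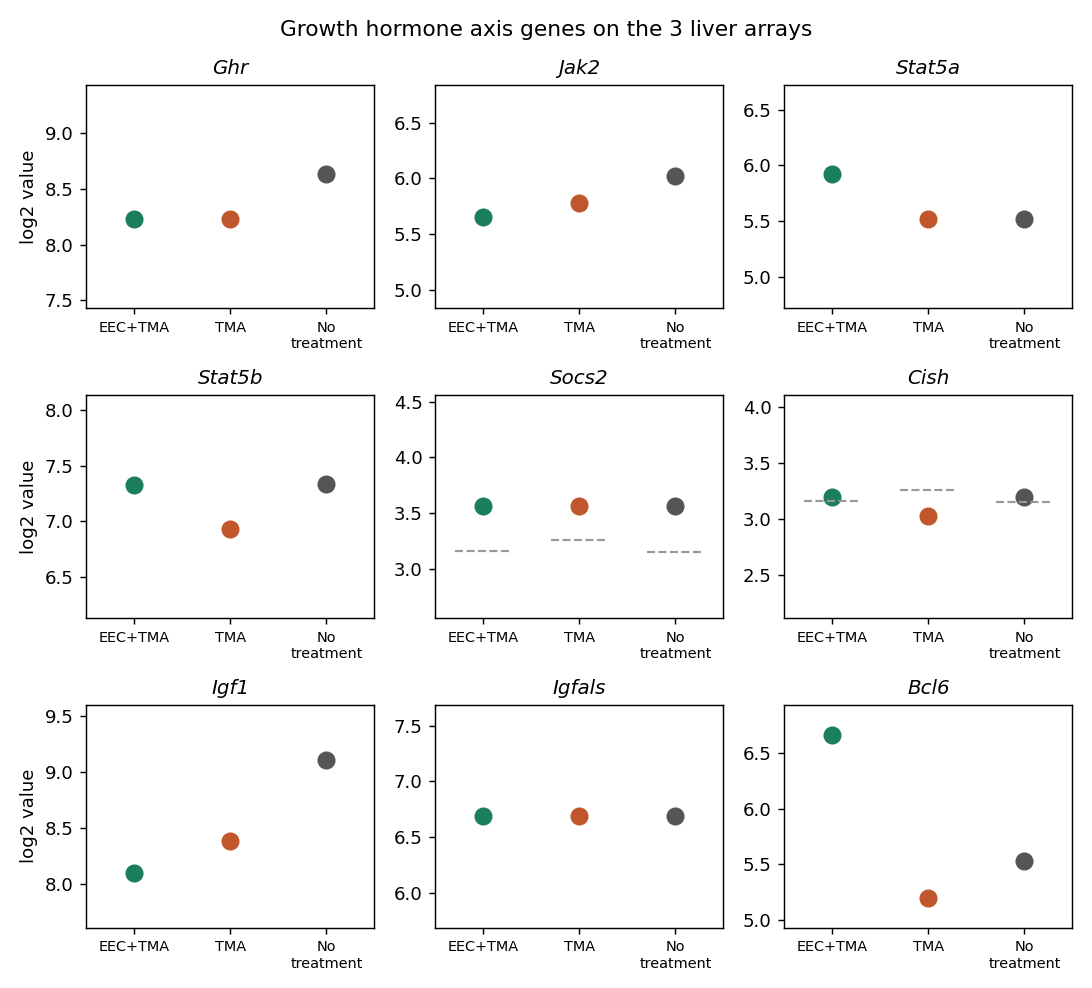
Log2 value of each member on the EEC+TMA, TMA and No treatment arrays, 1 point per array, with every panel spanning 2 log2 units around the gene and dashed lines at the background level of each array where it falls in the panel. Bcl6 stands high on EEC+TMA at 6.66, Igf1 descends to 8.10 on EEC+TMA against 9.11 on No treatment, and Socs2 and Igfals are level.

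The receptor and its kinase were lower on both treated arrays by modest amounts. Ghr, the receptor (chromosome 15, 3317760 to 3583230, minus strand), read 8.23 on EEC+TMA, 8.23 on TMA and 8.63 on no treatment. The 2 treated arrays were identical, and each lay 0.40 below the no treatment array, or 1.32-fold lower. For TMA minus no treatment the exon controls were lower too, by a median of -0.37. Jak2 (chromosome 19, 29251828 to 29313080, plus strand) read 5.65, 5.78 and 6.02 on the EEC+TMA, TMA and no treatment arrays, so that the log2 difference was -0.13 for EEC+TMA minus TMA, -0.24 for TMA minus no treatment and -0.37 for EEC+TMA minus no treatment. For TMA minus no treatment the Jak2 difference was smaller than that of the exon controls, and was -0.07 under quantile normalization and -0.20 under loess. Among genes measured on both arrays, 5.61% lay lower than Ghr and 6.22% lower than Jak2 when EEC+TMA was set against no treatment, a pair in which the exon controls differed by 0.02. For TMA minus no treatment 12.7% lay lower than Ghr and 21.2% lower than Jak2.

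The STAT5 genes lie side by side on chromosome 11, Stat5b at 100780731 to 100850724 on the minus strand and Stat5a at 100859351 to 100885169 on the plus strand, 8626 bases apart and transcribed away from each other. Stat5b, the form that carries most growth hormone signalling in liver, read 7.32 on EEC+TMA, 6.94 on TMA and 7.33 on no treatment. The TMA array alone was low, by 0.39 against EEC+TMA and 0.40 against no treatment, beside median differences of the exon control probe sets of 0.39 for EEC+TMA minus TMA and -0.37 for TMA minus no treatment. Stat5a read 5.92 on the EEC+TMA array and 5.52 on both the TMA and no treatment arrays. Here the EEC+TMA array alone was high, 1.32-fold above each of the others, and 2.61% of genes measured on both arrays lay higher for EEC+TMA minus no treatment. For EEC+TMA minus TMA 10.4% lay higher than Stat5a, whose difference of 0.40 stood beside 0.39 for the exon controls. Neither gene was 1.5-fold apart in any pair.

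The feedback inhibitor genes gave little signal. Socs2 (chromosome 10, 95385362 to 95417180, minus strand) read 3.56 on the EEC+TMA, TMA and no treatment arrays, again identical to the last digit. Cish (chromosome 9, 107296026 to 107302784, plus strand) read 3.20 on EEC+TMA, 3.02 on TMA and 3.20 on no treatment, the TMA value lying below the background of 3.26. No fold is given for Cish against TMA, since the higher values of 3.20 also lay below that level. Both genes lay under the 99th percentile of the receptor probe sets on every array, which was 4.30, 4.52 and 4.30 on the EEC+TMA, TMA and no treatment arrays. Some genes of the lists below lay under that stricter level on an array as well, among them Moxd1 on TMA and no treatment, Obp2a on EEC+TMA and TMA, and Abcd2 on EEC+TMA, so their folds rest on a low signal too.

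Identical values limit what the members can show. Of the 9 members 2 had the same value on all 3 arrays and 3 more had the same value on 2 of them. Of the 15272 genes measured on all 3 arrays 35.4% had the same value on all and 67.6% on at least 2. An identical value means that the deposited summary gave no difference and does not show that the transcript was at the same level.

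**Figure D3:**
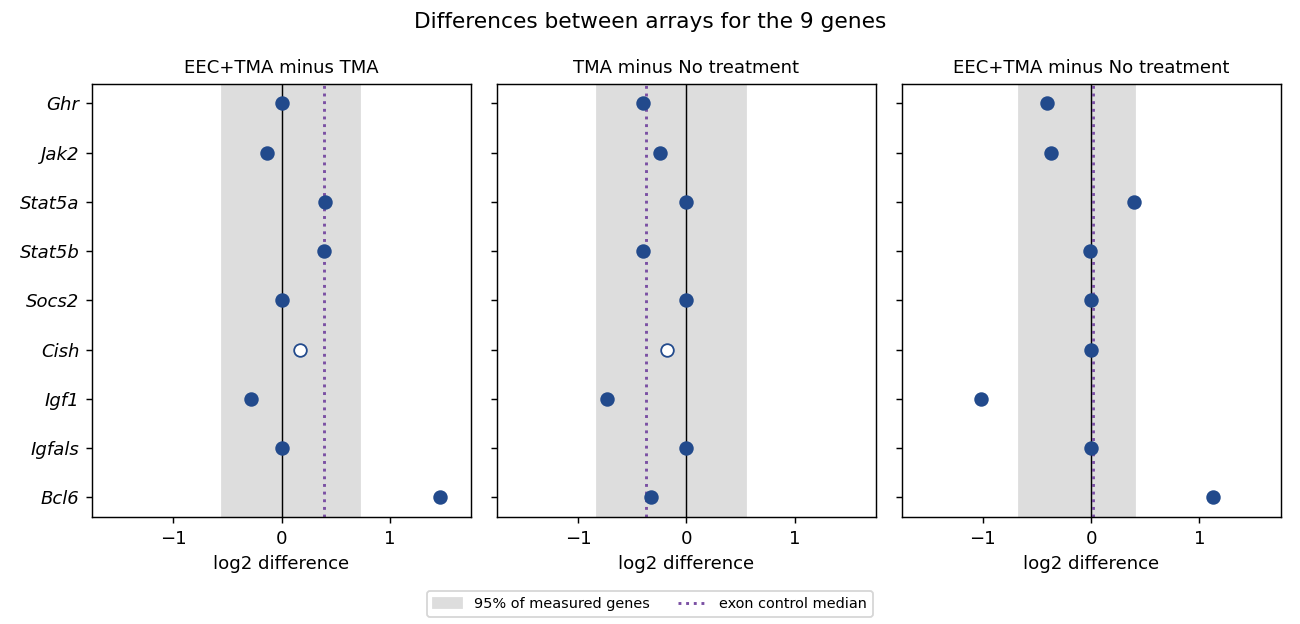
Log2 difference of each member for EEC+TMA minus TMA, TMA minus No treatment and EEC+TMA minus No treatment, filled where the gene was measured on both arrays and open where not, over the central 95% of measured genes (grey band) and the median of the exon controls (dotted line). Bcl6 lies right of the band at 1.46 and 1.13, Igf1 lies left of it at -1.01, and Stat5b lies near the dotted line in the pairs that use the TMA array.

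Between EEC+TMA and TMA, the pair that bears on the extract given ahead of trimethylamine, 1 of the 8 members measured on both arrays was at least 2-fold higher, beside 0.632% of 15359 genes, and 0 were 2-fold lower, beside 0.378%. The counts were the same at 1.5-fold, beside 4.81% of genes higher and 2.16% lower. Quantile normalization moved the genes of the background at least 2-fold apart to 57 higher and 89 lower, against 97 higher and 58 lower as deposited, and loess to 66 and 83. The 8 members had a median difference of 0, with 3 higher, 2 lower and 3 identical, beside a median of 0 over all measured genes, of which 37.2% were higher and 19.6% lower. That count is Bcl6.

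Between TMA and no treatment, the pair that bears on trimethylamine, 0 of 8 members were at least 2-fold higher or lower, beside 0.646% and 1.24% of 15323 genes. At 1.5-fold Igf1 alone was lower, beside 6.53%, and no longer was under quantile normalization or loess, while 0 members were higher, beside 2.28%. The median over the 8 was -0.29, with 5 lower and 3 identical, and it was -0.11 under quantile normalization and -0.20 under loess, beside a median of 0 over all genes, of which 38.5% were lower. Quantile normalization gave 142 genes at least 2-fold higher and 117 lower, loess 127 and 137, against 99 and 190 as deposited.

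For EEC+TMA against no treatment, 1 of 9 members, Bcl6, was at least 2-fold higher, beside 0.161% of 16121 genes, and 1, Igf1, at least 2-fold lower, beside 1.02%. The same 2 stood at 1.5-fold, beside 0.893% higher and 3.16% lower. Of the other 7 members Ghr and Jak2 were lower, Stat5a was higher, Stat5b differed by -0.01 and Socs2, Cish and Igfals were identical.

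By a rule of likeness, the genes nearest to Bcl6 over the 3 arrays were sought among 12381 genes measured on all 3 arrays, leaving out the members, predicted loci, small RNA genes and chemosensory receptor genes, as the distance between log2 values centred on each gene's own mean. They were Gstm3, a glutathione transferase gene (distance 0.228), Cbr1, a carbonyl reductase gene (0.249), Moxd1, a male-biased monooxygenase-like gene (0.260), H2-Ab1, a class II histocompatibility gene (0.265), and Igtp, an interferon-induced GTPase gene (0.276). Igtp read 7.22, 6.10 and 6.10 and Moxd1 5.07, 3.38 and 4.07 on the EEC+TMA, TMA and no treatment arrays. Both were highest on EEC+TMA, as Bcl6 was, with TMA minus no treatment at -0.69 for Moxd1 and 0 for Igtp beside -0.33 for Bcl6. The genes nearest to Igf1, the member with the next widest range, lay much closer. They were Slc25a21, a mitochondrial carrier gene (0.007), Slco1a1, an organic anion uptake carrier gene that is male-biased in mouse liver (0.012), Ccser2 (0.026), Mysm1 (0.033) and Kdm7a, a histone demethylase gene (0.035). Slco1a1 read 9.77, 10.05 and 10.76 on the EEC+TMA, TMA and no treatment arrays, and was 1.99-fold lower on EEC+TMA than on no treatment, beside 2.02-fold for Igf1. These genes were picked for their likeness to the member, so that a shared shape follows from the rule itself. With 3 arrays such likeness is a description only.

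**Figure D4:**
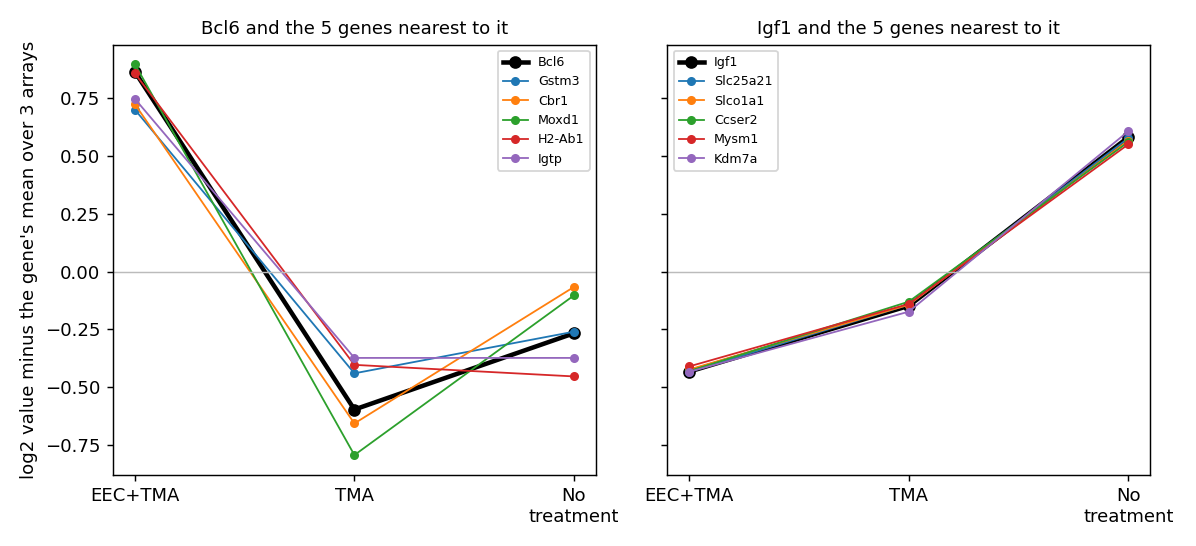
Log2 values centred on each gene's mean over the 3 arrays, for Bcl6 (left) and Igf1 (right) in black with the 5 genes nearest to each in colour, on the EEC+TMA, TMA and No treatment arrays. The lines around Bcl6 spread by up to 0.276 in distance, and those around Igf1 lie within 0.035.

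Other genes of receptor signalling were mostly identical between arrays as deposited. For EEC+TMA minus TMA 6 of the 20 measured regulators were higher, 1 lower and 13 identical, none 2-fold. These are 30%, 5% and 65%, beside 37.2%, 19.6% and 43.2% of all measured genes. Under quantile normalization 10 were higher and 10 lower, and under loess 8 and 12. Stat3, which relays the interleukin-6 family, read 8.59 on EEC+TMA and 7.67 on TMA, 1.89-fold higher. Jak1, a kinase of cytokine receptors, was 1.64-fold higher at 8.28 against 7.56. The log2 differences of Stat3 and Jak1 were 0.92 and 0.72 as deposited, and 0.71 and 0.5 under quantile normalization. For TMA minus no treatment 2 were higher and 7 lower, beside 19.4% and 38.5% of all genes. Under quantile normalization these counts were 12 and 8, and under loess 9 and 11. Irs2, an insulin receptor substrate gene, was 2.45-fold lower at 5.59 against 6.89, beside 1.24% of genes at least 2-fold lower. It was the only regulator 2-fold apart in any pair. For EEC+TMA minus no treatment 4 of 21 were higher and 5 lower, beside 25.4% and 19.9% of all genes, with Irs2 1.81-fold lower. Quantile normalization gave 17 higher and 4 lower in that pair. Among the other feedback genes of the Socs family, Socs1, Socs3 and Socs7 were identical on all 3 arrays. Socs4 read 5.01, 5.01 and 5.48 on the EEC+TMA, TMA and no treatment arrays, 1.38-fold lower on both treated arrays, and Socs6 read 3.74, 3.85 and 3.78. Socs5 read 3.16 on each and was below background on TMA. The medians of this list were 0 in all 3 pairs, as over all genes.

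Of the circulating insulin-like growth factor system, 11 of 15 genes were measured. Igfbp1, a binding protein gene that insulin represses, read 5.62, 5.03 and 7.55 on the EEC+TMA, TMA and no treatment arrays. It was low on both treated arrays, as Igf1 was, by 3.80-fold on EEC+TMA and 5.73-fold on TMA against no treatment. Igfbp2, another binding protein gene, was 1.85-fold higher on EEC+TMA than on TMA and 1.68-fold higher than on no treatment, and Igfbp3, the binding protein of the complex with Igfals, was identical on all 3 arrays at 5.52. Insr, the insulin receptor gene, read 7.81, 7.38 and 8.32, so that it was 1.92-fold lower on TMA than on no treatment. The list had 7 higher and 2 lower for EEC+TMA minus TMA (median 0.18, and 0.12 under both quantile normalization and loess), and 2 higher and 7 lower for TMA minus no treatment (median -0.14, -0.01 under quantile normalization and under loess). For EEC+TMA minus no treatment 3 were higher and 3 lower, with a median of 0. Of all measured genes 37.2% were higher and 19.6% lower for EEC+TMA minus TMA, and 19.4% and 38.5% for TMA minus no treatment. For EEC+TMA minus no treatment the shares were 25.4% and 19.9%. Igfbp1 alone of the list was 2-fold apart, beside 1.24% of genes 2-fold lower on TMA and 1.02% on EEC+TMA, each against no treatment.

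Among transcription factors that act with growth hormone in liver, all 19 were measured. Onecut1, a hepatocyte factor gene that growth hormone induces in rats, read 7.01, 7.08 and 8.59 on the EEC+TMA, TMA and no treatment arrays. It was low on both treated arrays, 2.99-fold on EEC+TMA and 2.85-fold on TMA against no treatment. Zhx2, a repressor that controls several liver genes of the mouse, was 2.20-fold higher on EEC+TMA than on TMA at 6.85 against 5.72, though just under 2-fold after quantile normalization, and Foxa1, a pioneer factor, 1.63-fold higher. Cux2, a female-biased repressor in mouse liver, was identical on all 3 arrays at 3.39, and so was Hnf4a at 9.87. In all 10 were higher and 3 lower for EEC+TMA minus TMA, a median of 0.05 that was -0.02 under quantile normalization and 0 under loess, with 9 higher and 10 lower under each. For TMA minus no treatment 3 were higher and 11 lower, a median of -0.15 that turned to 0.06 under quantile normalization, with 11 higher and 8 lower, and for EEC+TMA minus no treatment 8 were higher and 4 lower. Over all measured genes the shares in these 3 pairs were 37.2% and 19.6%, 19.4% and 38.5%, and 25.4% and 19.9%. Zhx2 stood beside 0.632% of genes 2-fold higher. Onecut1 stood beside 1.24% of genes 2-fold lower on TMA and 1.02% on EEC+TMA, each against no treatment.

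Genes for corepressors and relatives of BCL6 made the next list. Of 15 measured, 8 were higher and 1 lower for EEC+TMA minus TMA with a median of 0 after rounding, none 2-fold, but 6 were higher and 9 lower under quantile normalization and 7 and 8 under loess. Zbtb16, a zinc finger gene of the same family, was 1.95-fold higher at 5.85 against 4.89. Ncor1, a corepressor gene, read 7.12, 7.07 and 8.01 on the EEC+TMA, TMA and no treatment arrays, 1.85-fold lower on EEC+TMA and 1.92-fold lower on TMA than on no treatment. Zbtb20, a repressor gene of hepatocytes, read 6.92, 6.92 and 8.22, 2.46-fold lower on both treated arrays, and Cul3, a ubiquitin ligase scaffold gene, was 2.07-fold lower on EEC+TMA than on no treatment, under 2-fold after quantile normalization. The corepressor genes Bcor and Hdac7 and the paralog Bcl6b were identical throughout. For TMA minus no treatment 0 were higher and 6 lower, but 7 were higher and 8 lower under quantile normalization and under loess, and for EEC+TMA minus no treatment 6 were higher and 3 lower. All measured genes had shares of 37.2% and 19.6%, 19.4% and 38.5%, and 25.4% and 19.9% in these 3 pairs. The 2-fold lower values of Zbtb20 and Cul3 stood beside 1.24% of genes for TMA and 1.02% for EEC+TMA, each against no treatment.

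Genes that growth hormone makes male-biased in mouse liver were low on the TMA array. Of 29 measured of 30, 25 were lower and 0 higher for TMA minus no treatment, a median of -0.52 with 5 at least 2-fold lower, beside 38.5% of all measured genes lower and 1.24% at least 2-fold lower. Under quantile normalization 5 were higher and 24 lower (median -0.32), and under loess 8 and 21 (median -0.31), with 3 at least 2-fold lower under each. For EEC+TMA minus TMA 23 were higher and 3 lower, a median of 0.45 with 3 at least 2-fold higher, beside 37.2% of all measured genes higher and 0.632% at least 2-fold higher. Under quantile normalization 21 were higher and 7 lower (median 0.25), and under loess 19 and 10 (median 0.27), with 2 at least 2-fold higher under each. Hepatocyte markers moved with the list as deposited, 8 of 9 being lower for TMA minus no treatment and 9 of 9 higher for EEC+TMA minus TMA. Under quantile normalization 8 of 9 were lower (median -0.19) and 8 of 9 higher (median 0.34) in these pairs. Under loess the medians were 0.07 and 0.04. The exon controls differed by -0.37 and 0.39 in the same pairs. The part of these markers and controls in the list's differences was not tested. Cyp2d9, a cytochrome P450 gene, read 9.76, 8.37 and 9.50 on the EEC+TMA, TMA and no treatment arrays, so that only the TMA array was low. Slc22a30, an organic ion transporter gene, read 5.35, 4.48 and 6.75, and Obp2a, an odorant binding protein gene, 3.42, 4.21 and 5.84. These last 2 were low on both treated arrays, by 2.65-fold and 5.37-fold on EEC+TMA against no treatment. Moxd1 was 3.23-fold higher on EEC+TMA than on TMA and Cyp4a12b 2.22-fold (log2 difference 0.93 under quantile normalization, below 2-fold). For EEC+TMA minus no treatment the list had a median of -0.01, with 9 higher and 16 lower, 0 at least 2-fold higher and 3 at least 2-fold lower, the log2 difference of Moxd1 falling just short of 1.

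Female-biased genes showed no shared shift as deposited, but their signal was low. Over all 30 genes their medians were 3.82, 3.79 and 3.91 on the EEC+TMA, TMA and no treatment arrays. The male-biased list had medians of 8.98, 8.31 and 9.1. Of the female-biased genes 10 were measured on no array. How far this low level limits their differences was not tested. Of 20 measured of 30, 7 were higher and 7 lower for EEC+TMA minus TMA, 8 and 7 for TMA minus no treatment, and 6 and 5 for EEC+TMA minus no treatment, all with a median of 0. Over all measured genes the shares were 37.2% and 19.6%, 19.4% and 38.5%, and 25.4% and 19.9%. For EEC+TMA minus TMA 2, Cyp2b9 and Abcd2, were at least 2-fold lower, beside 0.378% of genes, and 0 were 2-fold higher. Cyp2b9 alone of the list was 2-fold higher for TMA minus no treatment (beside 0.646%) and for EEC+TMA minus no treatment (beside 0.161%), with 0 lower. Cyp2b9, a cytochrome P450 gene, read 7.26, 8.27 and 6.24 on the EEC+TMA, TMA and no treatment arrays, and was highest on TMA. Abcd2, a peroxisomal transporter gene, read 3.77, 5.50 and 4.59, 3.31-fold lower on EEC+TMA than on TMA. Cyp2a4, in contrast, read 5.92, 5.12 and 5.88, lowest on TMA. Its probe set matches more than its own transcript, as do those of Cyp4a12b and Cyp2c40. Because the sex of the mice is not given, a difference in sex between the arrays and a difference in hormone action cannot be told apart in these lists.

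**Figure D5:**
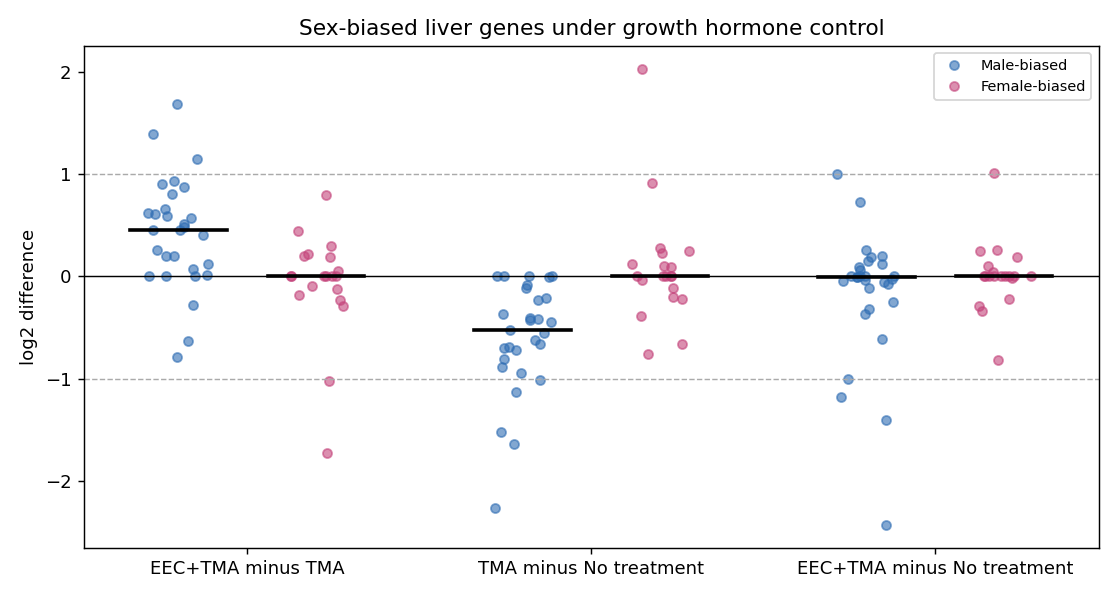
Log2 difference of male-biased (blue) and female-biased (pink) liver genes for EEC+TMA minus TMA, TMA minus No treatment and EEC+TMA minus No treatment, 1 point per gene measured on both arrays, with black bars at the medians and dashed lines at 2-fold. The male-biased medians are 0.45, -0.52 and -0.01, and the female-biased medians are 0. The female-biased list has a lower level, with a median of 3.91 against 9.1 on the No treatment array.

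Other genes known to respond to STAT5 or growth hormone varied among themselves. Gadd45g, a growth arrest and DNA damage gene, read 6.48, 4.94 and 6.48 on the EEC+TMA, TMA and no treatment arrays, 2.91-fold lower on TMA than on each of the others. Il6st, the receptor subunit shared by the interleukin-6 family, read 8.94, 8.32 and 9.37, 2.07-fold lower on TMA than on no treatment (log2 difference -0.82 under quantile normalization). Pdk4, a kinase that restrains glucose oxidation, was 1.62-fold higher on EEC+TMA than on TMA. Pim1 and Bcl2l1, STAT5 targets of blood cells, were identical on all 3 arrays, as were Egr1 and Fos. Of 14 measured, 5 were higher and 3 lower for EEC+TMA minus TMA, 4 and 5 for TMA minus no treatment, and 4 and 2 for EEC+TMA minus no treatment, each with a median of 0. Over all measured genes the shares were 37.2% and 19.6%, 19.4% and 38.5%, and 25.4% and 19.9%. Under quantile normalization the counts were 5 and 9, 9 and 5, and 13 and 1. Of the list 1 gene was 2-fold higher for EEC+TMA minus TMA, beside 0.632% of genes. For TMA minus no treatment 2 were 2-fold lower, beside 1.24%.

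Sinusoidal endothelial markers also differed on the TMA array, and stellate and cholangiocyte markers less so. The endothelial markers had medians of 6.96, 6.33 and 6.78 on the EEC+TMA, TMA and no treatment arrays. For EEC+TMA minus TMA 6 of 8 were higher and 0 lower, beside 37.2% and 19.6% of all measured genes. Stellate cell markers had medians of 5.35, 5.25 and 5.61, with 3 higher, 1 lower and 4 identical in that pair. Cholangiocyte markers, 3 of 6 measured, had 1 higher, 1 lower and 1 identical in it. Their medians over all 6 were 3.15, 3.22 and 3.20. All 9 hepatocyte markers were higher on EEC+TMA than on TMA, by a median of 0.39. That median was 0.34 under quantile normalization, with 8 of 9 higher, and 0.04 under loess, with 7 higher. For TMA minus no treatment 8 of 9 were lower, by a median of -0.28. The latter median was -0.19 under quantile normalization, again with 8 lower, and turned to 0.07 under loess, with 3 lower. The part of these shifts in the differences of the members was not tested.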

How the data were processed

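Liver RNA of 3 groups was read on 3 arrays, 1 per group, from biotin-labelled sense cDNA, per the labels' protocols. For each probe set and array the authors deposited a log2 value, its summary and normalization not given in the sources used here. A second deposited table held the same log2 values, with a largest difference of 5e-05. The authors also deposited 2 lists with a signed fold per probe set, a score that is the linear fold, written as a negative number where the array named first was lower. All main probe sets at or above 2.5-fold are in them.

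From 33793 main probe sets, 1 was kept per symbol, the one with the highest mean. A gene counted as apart at 2-fold, or 1.5-fold as a second size, after each array was raised to its background level. Lists of 7 pathways and 8 cell types, with 3 genes in 2 pathway lists, were described by counts and medians. Up to 4 genes of a pathway list with the largest difference in a pair are named, further ones after their values were seen. Some listed genes are not reported by name here. No test was made. Members and lists were chosen with earlier results of these data known. Promoter sequences are RefSeq's (GRCm38.p6), searched on both strands. Alternatives were median centring, quantile normalization, loess (span 0.3, statsmodels 0.14.6), other background levels, the mean of probe sets, the second table and other sizes. The counting was tested on simulated data.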

Additional observations from a re-analysis of the deposited data

How the results depend on the processing

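As deposited, 1 member was at least 2-fold apart for EEC+TMA minus TMA, 0 for TMA minus no treatment and 2 for EEC+TMA minus no treatment, and these counts were the same under median centring, quantile normalization, loess, no background level, the 99th percentile as background, the mean of probe sets and the second table. Some of these settings could not change the counts. Each member has a single probe set, and the second table differs by at most 5e-05. Bcl6 and Igf1 also lay above both background levels on every array. At 1.5-fold the count for TMA minus no treatment was 1, and at 3-fold the counts for EEC+TMA minus TMA and for EEC+TMA minus no treatment were 0. Over these alternatives Bcl6 spanned 1.38 to 1.51 when EEC+TMA was set against TMA and 1.13 to 1.14 against no treatment, where Igf1 was at -1.01 throughout. For EEC+TMA minus no treatment, median centring and loess returned the deposited member differences after rounding. In that pair quantile normalization alone moved any of them. Quantile normalization moved 6 of the 27 member differences by more than the size within which 68% of genes differ, which was 0.196 for EEC+TMA minus TMA and 0.215 for TMA minus no treatment. These were Ghr (-0.14), Stat5b (-0.16), Igf1 (-0.50) and Igfals (0.23) for TMA minus no treatment and Ghr (-0.23) and Igf1 (-0.51) for EEC+TMA minus TMA, and the cause was not tested. No paired analysis was possible because each group has 1 array. Leaving out an array removes the 2 pairs that use it and leaves the deposited value of the third as it is. Signal over background limits Socs2 and Cish most among the members.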

Other observations

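The identical values were not spread evenly over the arrays. Of the 15272 genes measured on all 3 arrays, 2678 had the same value on the EEC+TMA and no treatment arrays only, 1204 on the EEC+TMA and TMA arrays only, and 1031 on the TMA and no treatment arrays only, while 5412 were identical on all 3 and 4947 differed on each. Among the members Cish was of the first kind, Ghr of the second and Stat5a of the third, and Bcl6, Igf1, Jak2 and Stat5b differed on each array. The bacterial spike-in probe sets, which read material added at hybridisation, differed by a median of -0.46 for EEC+TMA minus TMA and 0.44 for TMA minus no treatment, in the same direction as the poly-A spike-ins and opposite to the exon controls.

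Within the promoter search, BCL6 corepressors and relatives held the motif in 6 of 19 windows, which belong to 4 of 11 genes. The male-biased genes held it in 1 of 24 windows and the female-biased genes in 4 of 30. The circulating insulin-like growth factor list held it in 0 of 16, the other responsive genes in 0 of 17, the regulators of receptor signalling in 2 of 19 and the transcription factors in 1 of 20, against 8.30% of all windows. Of these lists 3 genes stand in 2, and no difference between lists was tested.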
